A study of Punica granatum with 14 samples.

Results

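The 150 genes described here were those whose share of the counted reads varied least over the leaf libraries of pomegranate seedlings grown under 3 plant growth retardants and under control conditions. They were taken from 27893 genes with raw counts in 14 libraries. CPM, the count of a gene divided by the total of its library and scaled to 1000000 counts, was averaged over the libraries, and 8925 genes reached a mean of at least 20. Without the 100 genes of highest mean CPM in CK, 8825 genes were eligible. The 150 with the smallest standard deviation (SD) of log2(CPM + 1) over the 14 libraries were kept, which were 1.70% of the eligible genes. Because the rule used every library, the SDs, levels and shifts of these genes are given as a description and without a test, except where libraries that took no part in the choice were measured.

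The seedlings were of the cultivar Hongmanao, labelled wild type, and were grown as tissue culture from stem tips on a medium with the auxin IBA. Leaves were sampled after 90 days of paclobutrazol at 6 and 8 mg/L, B9 (daminozide) at 6 and 8 mg/L, mannitol at 2.5 and 15 g/L, or distilled water (CK). Each of the 7 conditions had 2 libraries from separate plants, with totals from 15790717 to 28385703 counts. The 2 plants of paclobutrazol at 6 mg/L stood apart from each other. The median gene among the eligible ones differed by 0.63 (log2) between them, against 0.14 to 0.21 between the plants of any other condition.

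Reference genes are transcripts taken to keep the same level in all samples of an experiment, against which the targets of a qPCR are expressed. In plants they are commonly drawn from genes of the cytoskeleton, translation, ubiquitin-dependent protein turnover and glycolysis. A reference that moves with the treatment shifts every target by the same amount. The agents of this study act on different points. Paclobutrazol blocks an early oxidation step of gibberellin synthesis, B9 inhibits late steps of the same pathway, and mannitol is a sugar alcohol that lowers the water potential of the medium. All 150 genes were protein-coding in the RefSeq gene table of assembly ASM765513v2, as were 99.4% of the eligible genes. That table carries no product names, so the genes are identified by symbol and no role is given for any of them, and the leaf label was not checked against marker genes.

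The most stable genes had SDs between 0.067 and 0.132, with a median of 0.12, compared with a median of 0.38 over all eligible genes. An SD of 0.132 corresponds to 9.56% of the level, and the median SD of the eligible genes to 30.1%. Between the highest and the lowest of the 14 libraries, the CPM of these genes differed by 1.18-fold to 1.47-fold, whereas the median eligible gene differed by 2.46-fold and only 31.0% of the eligible genes stayed under 2-fold. The limit fell in a dense part of the distribution. The last 3 genes inside, LOC116187579, LOC116210943 and LOC116189179, had SDs of 0.1313, 0.1315 and 0.1317, and the first 3 outside, LOC116215595, LOC116197595 and LOC116196034, had 0.1319, 0.1320 and 0.1321. In bulk leaf samples, fewer cells of a type and less RNA per cell cannot be told apart.

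**Figure D1:**
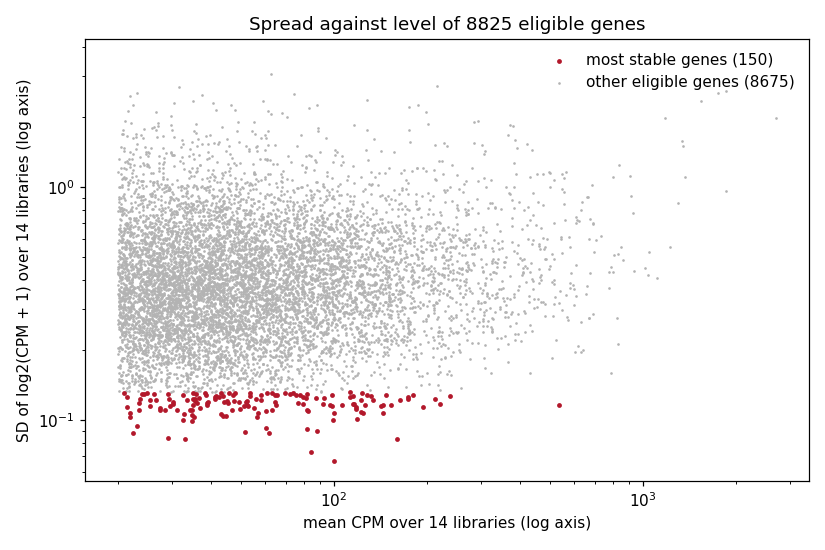
SD of log2(CPM + 1) over 14 libraries (y, log axis) against mean CPM (x, log axis), with 1 point per gene, for the 150 most stable genes and the other eligible genes. The stable genes lie under the limit of 0.132 and reach from 20.8 to 535 mean CPM, and only 4 of them lie above 200.

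The stable genes had mean CPM between 20.8 and 535, with a median of 52.4, against 47.8 over the eligible genes. CPM is not divided by transcript length, so it gives the reads that a gene provides and not an order of transcript abundance between genes. Between 20 and 50 CPM, 70 of 4620 eligible genes were in the list (1.52%). The shares were 1.91% between 50 and 100 CPM (46 genes), 2.56% between 100 and 200 (30 genes), and 0.635% above 200 (4 of 630 genes). The median SD of the eligible genes was larger in the highest band (0.44) than in the lowest (0.37). Every stable gene had at least 303 counts in every library. The spread expected from counting reads alone had a median of 0.042 (log2) over the list, and its ratio to the observed SD had a median of 36.6%, against 11.5% over the eligible genes. The highest ratio in the list was 73.5%.

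LOC116200855 was the most stable gene, with an SD of 0.067 and a mean of 100.2 CPM. It had 99.6 and 95.04 CPM with paclobutrazol at 6 mg/L and 100.4 and 100.9 at 8 mg/L, 106 and 99.3 with B9 at 6 mg/L and 100.2 and 99.1 at 8 mg/L, 91.8 and 98.0 with mannitol at 2.5 g/L and 102 and 95.5 at 15 g/L, and 111 and 104 in CK. The lowest library was a mannitol one and the highest a CK one, 1.21-fold apart. On the CPM scale, in no treatment but B9 at 6 mg/L did the values overlap with those of CK. With library totals scaled by TMM, the trimmed-mean method of edgeR, its mean differed from CK by 0.049 (log2) and 0.064 with paclobutrazol at 6 and 8 mg/L. The TMM differences were 0.017 and 0.0021 with B9 at 6 and 8 mg/L, and -0.089 and 0.079 with mannitol at 2.5 and 15 g/L.

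LOC116203500 had the smallest fold between extreme libraries, 1.18, and the smallest SD between the 2 plants of a condition, 0.031. It gave 79.8 and 81.9 CPM with paclobutrazol at 6 mg/L and 85.3 and 87.1 at 8 mg/L, 88.4 and 88.3 with B9 at 6 mg/L and 92.3 and 88.5 at 8 mg/L, 82.2 and 78.3 with mannitol at 2.5 g/L and 81.2 and 78.5 at 15 g/L, and 81.9 and 81.8 in CK. Its replicates lay close together while its condition means were set apart. On the CPM scale, both plants of paclobutrazol at 8 mg/L and all 4 of B9 were above both CK plants, while 3 of the 4 mannitol plants were below both. On the TMM scale its mean was above CK in every treatment, from 0.056 (log2) with mannitol at 2.5 g/L to 0.25 with B9 at 8 mg/L.

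The opposite pattern was seen for LOC116206092, whose 7 condition means had the smallest range of all eligible genes, 0.11 (log2). Its values were 30.1 and 27.98 CPM with paclobutrazol at 6 mg/L and 31.8 and 28.1 at 8 mg/L, 28.4 and 29.9 with B9 at 6 mg/L and 29.1 and 30.5 at 8 mg/L, 30.2 and 29.6 with mannitol at 2.5 g/L and 30.5 and 25.4 at 15 g/L, and 29.0 and 26.4 in CK. Here the 2 plants of a condition differed as much as plants of different conditions, with an SD between such plants of 0.097 and an SD over all libraries of 0.084. At 29.1 CPM, reads alone gave it a counting spread of 0.057.

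Among the other genes of smallest SD, LOC116210971 was the one with most reads, at 159 CPM and an SD of 0.083. It gave 146 and 157 CPM with paclobutrazol at 6 mg/L and 163 and 148 at 8 mg/L, 158 and 155 with B9 at 6 mg/L and 164 and 149 at 8 mg/L, 163 and 165 with mannitol at 2.5 g/L and 153 and 158 at 15 g/L, and 174 and 178 in CK. On the CPM scale all 12 treated libraries were below both CK libraries, and the 6 comparisons share these CK libraries. On the TMM scale its differences from CK were smaller, from -0.092 (log2) with B9 at 6 mg/L to 0.026 with mannitol at 15 g/L. LOC116211238, with an SD of 0.089, was close to 50 CPM in every library except replicate 2 of mannitol at 15 g/L, where it had 43.2 CPM, and lay between 49.0 and 55.7 CPM in the other 13. LOC116208796 was highest in both plants of mannitol at 2.5 g/L, with 99.4 and 97.0 CPM, against 89.7 and 89.0 in CK. LOC116197174 was lowest in both plants of paclobutrazol at 8 mg/L, with 20.6 and 20.7 CPM, against 23.0 and 25.4 in CK.

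The rest of the 12 genes of smallest SD were LOC116188291 (33.0 CPM), LOC116212919 (22.3 CPM), LOC116200752 (61.6 CPM), LOC116186955 (81.7 CPM) and LOC116208734 (60.4 CPM), with SDs of 0.083 to 0.093. In all of these but LOC116188291, the SD between the 2 plants of a condition was about as large as the SD over all libraries. LOC116186955 showed this most clearly with paclobutrazol at 6 mg/L, with 74.0 and 90.1 CPM, against 76.7 and 81.9 CPM in CK. Both plants of B9 at 8 mg/L lay above CK for LOC116200752, with 64.4 and 66.0 CPM, against 58.7 and 55.6 CPM in CK. So did both plants of B9 at 6 mg/L (61.2 and 67.4 CPM) and of paclobutrazol at 6 mg/L (62.1 and 59.0 CPM). The mean of this gene was above CK in all 6 treatments.

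**Figure D2:**
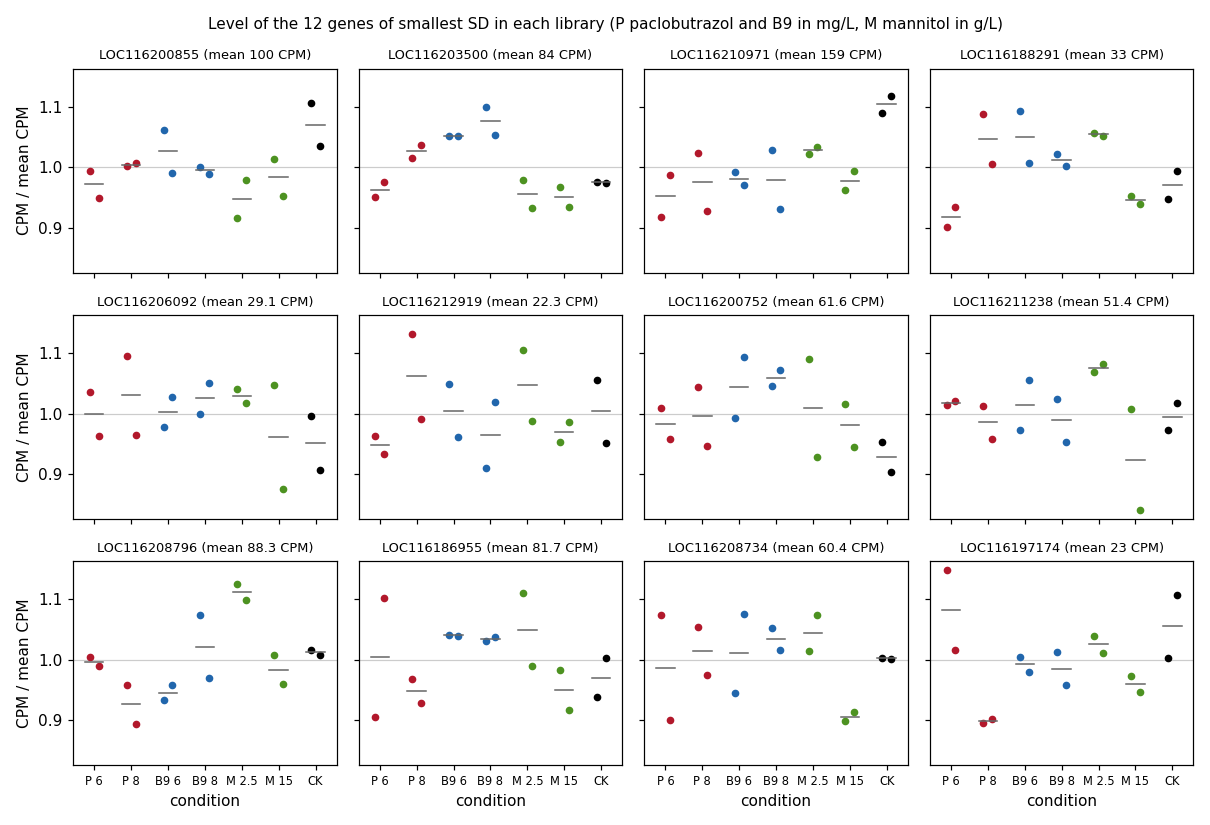
CPM of the 12 genes of smallest SD in each library, divided by the mean CPM of the gene over 14 libraries (y), by condition (x). Points are single libraries, with replicate 1 at the left, and bars are means of 2 libraries. The points of LOC116203500 lie close together within conditions, those of LOC116206092 spread within conditions around nearly equal means, and LOC116210971 is highest in both CK libraries.

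At higher read numbers the list was thin. LOC116208217 had the highest mean, 535 CPM, with an SD of 0.12. It had 485 and 447 CPM with mannitol at 15 g/L, against 587 and 485 in CK, and the other 10 libraries lay between 508 and 590 CPM. The next by mean CPM were LOC116196548 (238 CPM, SD 0.13), LOC116201595 (220 CPM, SD 0.12), LOC116192820 (213 CPM, SD 0.12) and LOC116195429 (195 CPM, SD 0.11). LOC116201595 was higher in every treated library, from 202 to 247 CPM, than in CK, where it had 194 and 187 CPM. For LOC116195429, the plants of paclobutrazol at 6 mg/L had 162 and 179 CPM, against 202 and 207 CPM in CK, and 1 plant of mannitol at 2.5 g/L was as low, with 178 CPM. None of the 100 genes of highest CK level, which the rule left out, would have met the limit. Their smallest SD was 0.16 and their median 0.56.

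The drift of the list as a whole was small on the CPM scale, and its direction depended on how libraries were scaled. Differences are means of log2(CPM + 1) in a treatment minus those in CK. Their median over the 150 genes was -0.08 with paclobutrazol at 6 mg/L and -0.03 at 8 mg/L, 0.02 with B9 at 6 mg/L and -0.01 at 8 mg/L, -0.02 with mannitol at 2.5 g/L and -0.11 with mannitol at 15 g/L. With mannitol at 15 g/L, 124 of the genes were below CK and 26 above, and with paclobutrazol at 6 mg/L 100 were below and 50 above. Over the eligible genes the medians were -0.17, -0.10, -0.01, -0.05, -0.02 and -0.13 in the same order. When the library totals were scaled by TMM, the trimmed-mean method of edgeR, the medians of the list were positive in all 6 treatments. They were 0.10, 0.13, 0.09, 0.09, 0.07 and 0.09, and only B9 at 6 mg/L had a positive median on the CPM scale as well. The numbers of genes above CK were then 115, 118, 111, 115, 103 and 125 of 150, against 50, 60, 82, 73, 63 and 26 on the CPM scale.

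That change of sign, in all treatments but B9 at 6 mg/L, came with the scaling of all genes. TMM moved the median of the eligible genes by 0.08 to 0.20 upwards relative to CK. Set against the median of the eligible genes, the list was higher by 0.08 with paclobutrazol at 6 mg/L and 0.07 at 8 mg/L, 0.03 with B9 at 6 mg/L and 0.04 at 8 mg/L, 0.01 with mannitol at 2.5 g/L and 0.03 with mannitol at 15 g/L. These differences were within 0.01 of each other under CPM and TMM. Single libraries moved the smaller median shifts on the CPM scale. Without replicate 1 or 2 of B9 at 6 mg/L, the median of that treatment was 0.048 or -0.0037, and without replicate 1 of CK it was 0.0045. With paclobutrazol at 8 mg/L the median was -0.055 or -0.00025 without replicate 1 or 2 of that treatment. With B9 at 8 mg/L it was -0.032 without replicate 1 of CK and -0.026 without replicate 1 of that treatment. With mannitol at 2.5 g/L it was -0.037 or -0.0036 without replicate 1 or 2 of CK, and -0.035 or -0.0085 without replicate 1 or 2 of that treatment.

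**Figure D3:**
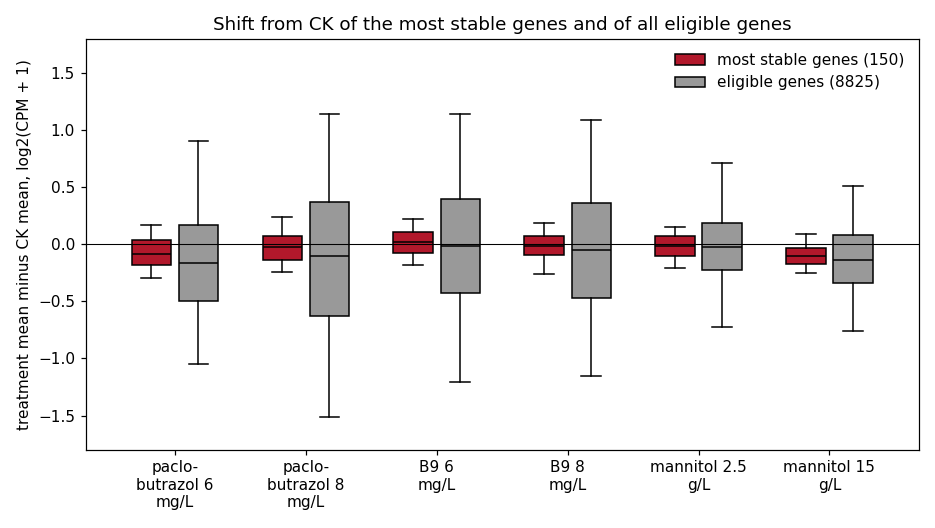
Mean log2(CPM + 1) of each treatment minus that of CK (y) for the 150 most stable genes and the 8825 eligible genes, by treatment (x). Lines in boxes are medians, boxes span the quartiles and whiskers the range from the 5th to the 95th percentile of genes. The boxes of the stable genes lie close to 0 by construction, with the lowest median, -0.11, with mannitol at 15 g/L.

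Each library had its own offset over the list. Replicate 2 of mannitol at 15 g/L was the lowest, at a median of -0.09 from the mean of each gene, and held the lowest value of 31 of the 150 genes. Replicate 2 of B9 at 6 mg/L was the highest, at 0.07, and held the highest value of 39 genes. Of all eligible genes, 18.6% and 13.6% had their lowest and their highest value in these libraries. The totals of the 150 genes made up between 1.01% of the counts, in replicate 2 of mannitol at 15 g/L, and 1.14%, in replicate 2 of B9 at 6 mg/L. On the TMM scale the order of the libraries was another one. Both CK libraries were then the lowest, at -0.08 each, and replicate 2 of paclobutrazol at 6 mg/L was the highest, at 0.11. The TMM factors were 1.08 and 1.09 in CK and 0.90 in that paclobutrazol library, the highest and the lowest of all 14.

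**Figure D4:**
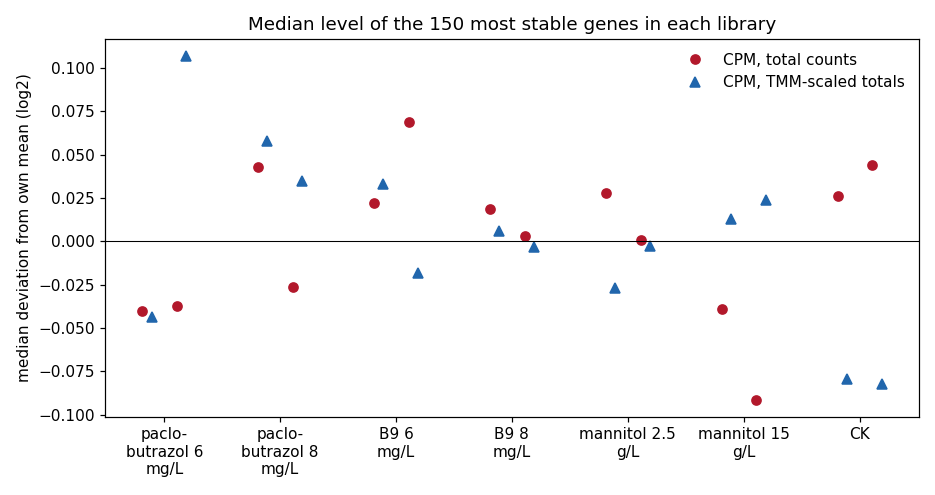
Median over the 150 most stable genes of the deviation from the mean of each gene (y, log2) in each library, by condition (x), with replicate 1 at the left. Circles use CPM on total counts and triangles CPM on TMM-scaled totals. CK lies at 0.03 and 0.04 on total counts and at -0.08 in both libraries after TMM scaling.

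The plants of a condition differed less in the stable genes than in others, which the rule also favours. The median absolute difference between 2 plants was 0.14 (log2) with paclobutrazol at 6 mg/L, the largest of the 7 conditions, and 0.07 to 0.11 in the others. With paclobutrazol at 6 mg/L, 24 of the 150 genes differed by over 0.25 between the plants, whereas 78.0% of the eligible genes did. In 88 genes the SD of the 7 condition means was larger than the SD between the 2 plants of a condition. This was the case for 58.7% of the list and for 81.9% of the eligible genes. By condition mean, mannitol at 15 g/L was the lowest condition for 48 of the 150 genes (21.7% of the eligible genes) and the highest for 2 (7.38%) on the CPM scale. For paclobutrazol at 6 mg/L the numbers were 44 (18.2%) and 7 (9.95%), for B9 at 6 mg/L they were 6 (8.68%) and 39 (18.4%), and for CK 11 (8.78%) and 31 (18.9%). On the TMM scale CK was instead the lowest for 67 genes (18.7% of the eligible genes) and the highest for 3 (8.82%). Mannitol at 15 g/L was then the lowest for 9 (13.0%) and the highest for 19 (14.2%).

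For each treatment, the gene farthest from CK in each direction is described. On the CPM scale, the mean of each of these genes lay on the same side of CK in all 6 treatments. On the TMM scale this held for the genes above CK, and among those below for LOC116210848 alone. All comparisons share the 2 CK plants, so a difference is not particular to the treatment under which it is listed. With paclobutrazol at 6 mg/L, LOC116195743 had 60.0 and 53.3 CPM, against 47.6 and 47.0 in CK, a difference of 0.25. This gene differed more with B9 at 6 mg/L (0.30) and mannitol at 2.5 g/L (0.28). Its differences were 0.24 with B9 at 8 mg/L, 0.11 with paclobutrazol at 8 mg/L and 0.02 with mannitol at 15 g/L. LOC116188490 had 49.8 and 41.8 CPM with paclobutrazol at 6 mg/L, against 57.1 and 60.9 in CK, a difference of -0.36. In both genes the plants of paclobutrazol at 6 mg/L lay beyond both CK plants, and lay farther from each other than the CK plants did. On the TMM scale the differences of the 2 genes in this treatment were 0.44 and -0.18.

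With paclobutrazol at 8 mg/L, LOC116201776 had 90.8 and 92.8 CPM, against 72.4 and 73.7 in CK. Its difference was 0.32 and was wider than the distance between the plants of either group. LOC116210848 had 86.7 and 81.4 CPM with paclobutrazol at 8 mg/L, against 107 and 109 in CK, a difference of -0.36. All 12 treated libraries of LOC116201776 were above both CK libraries, with 74.8 to 92.8 CPM. All 12 of LOC116210848 were below both CK libraries, with 81.4 to 102 CPM. TMM scaling gave 0.48 and -0.20 for the pair.

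With B9 at 6 mg/L, LOC116196548 had 253 and 265 CPM, against 196 and 203 in CK, a difference of 0.37. It was also the gene farthest above CK in both mannitol treatments, with 234 and 257 CPM at 2.5 g/L and 248 and 236 CPM at 15 g/L. All 12 treated libraries of this gene lay above both CK libraries, from 222 to 265 CPM, and its differences were 0.27 to 0.37 in these treatments and 0.38 to 0.47 on the TMM scale. The comparisons share the CK plants, so its 2 low CK values enter each of them. LOC116206866 was the gene farthest below CK with B9 at 6 mg/L, with 34.5 and 35.4 CPM, against 44.9 and 42.4 in CK, a difference of -0.31. All 12 treated libraries of LOC116206866 were below both CK libraries, with 34.5 to 42.3 CPM.

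With B9 at 8 mg/L, LOC116199459 had 43.8 and 45.8 CPM, against 33.5 and 33.2 in CK. Its difference of 0.42 was the largest of any gene in the list in any treatment. LOC116188365 had 93.0 and 83.3 CPM with B9 at 8 mg/L, against 114 and 107 in CK, a difference of -0.32. With mannitol at 2.5 g/L, LOC116210837 had 38.03 and 36.0 CPM, against 48.2 and 50.8 in CK, and its difference of -0.41 was the largest downward one. With mannitol at 15 g/L, LOC116205057 had 72.1 and 66.4 CPM, against 87.3 and 91.0 in CK, a difference of -0.36. On the TMM scale the genes farthest from CK under B9 or mannitol had the same sign, with 0.52 for LOC116199459 and -0.24 to -0.16 for LOC116206866, LOC116188365 and LOC116205057, and -0.32 for LOC116210837.

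Tested against CK with edgeR's quasi-likelihood test over 19478 genes, none of the 150 genes passed an absolute log2 fold change over 1 with an adjusted p under 0.05 in any treatment. The rule had used these contrasts, so the counts are given beside those of all tested genes and nothing is read from them. Of all tested genes, 4% were called with paclobutrazol at 6 mg/L and 8.1% at 8 mg/L, 6.73% with B9 at 6 mg/L and 1.58% at 8 mg/L, 0.0565% with mannitol at 2.5 g/L and 0.0257% with mannitol at 15 g/L. The adjusted p alone called none of the 150 genes either, where it called 4.86%, 11.2%, 8.89%, 1.94%, 0.0565% and 0.0257% of all tested genes in the same order, and the smallest was 0.055 (edgeR, Benjamini-Hochberg adjustment), for LOC116187745 with paclobutrazol at 8 mg/L. An unadjusted p under 0.05 was found for 14 of the genes with paclobutrazol at 6 mg/L (24% of all tested genes), 13 with paclobutrazol at 8 mg/L (37.4%) and 7 with B9 at 6 mg/L (30.3%). There were 8 with B9 at 8 mg/L (27.5%), 5 with mannitol at 2.5 g/L (15.5%) and 6 with mannitol at 15 g/L (11.6%). The count by adjusted p alone depended on the libraries of paclobutrazol at 6 mg/L. Without replicate 1 of that treatment it was 21 with paclobutrazol at 6 mg/L (37.2% of all genes tested in that fit) and 14 at 8 mg/L (37.4%), 3 with B9 at 6 mg/L (30.8%) and 5 at 8 mg/L (27.9%). Without replicate 2 it was 16 with paclobutrazol at 8 mg/L (37.7%), 6 with B9 at 6 mg/L (31%) and 5 at 8 mg/L (28.2%). Without both it was 18 with paclobutrazol at 8 mg/L (39.2%), 7 with B9 at 6 mg/L (32.4%) and 6 at 8 mg/L (29.5%), and 1 with mannitol at 2.5 g/L (5.55%). DESeq2 on all 14 libraries also called none by both thresholds. By its adjusted p alone it called 5 genes with paclobutrazol at 6 mg/L (14.2% of the genes it tested) and 10 at 8 mg/L (28%), 4 with B9 at 6 mg/L (20.1%) and 5 at 8 mg/L (14.7%), and 2 with mannitol at 2.5 g/L (7.12%) and 1 at 15 g/L (3.54%).

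Small differences from CK often left no overlap between the plants. On the CPM scale, both plants of mannitol at 15 g/L were below both CK plants in 85 of the 150 genes, while this was so for 45.2% of the eligible genes, and above in 11, against 16.1%. With paclobutrazol at 6 mg/L 58 genes lay below both CK plants (28.8% of the eligible genes) and 22 above (16.4%). With paclobutrazol at 8 mg/L the numbers were 52 (44.2%) and 37 (34.3%), with B9 at 6 mg/L 35 (39.9%) and 43 (37.7%), with B9 at 8 mg/L 53 (42.8%) and 34 (36.7%), and with mannitol at 2.5 g/L 41 (31.5%) and 25 (26.6%). On the TMM scale the split turned round. With mannitol at 15 g/L, 6 genes then lay below both CK plants (22.5% of the eligible genes) and 77 above (36.8%), and with paclobutrazol at 6 mg/L 11 lay below (17.2%) and 67 above (25.4%). For paclobutrazol at 8 mg/L the numbers were 8 (36.6%) and 91 (42.4%), for B9 at 6 mg/L 16 (34.8%) and 74 (43%), for B9 at 8 mg/L 23 (36%) and 79 (43.7%), and for mannitol at 2.5 g/L 17 (22.9%) and 60 (36.6%). Neither direction therefore held on both scales, except that B9 at 6 mg/L had more genes above than below CK on both.

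Whether genes of small spread stay stable in libraries that did not choose them was examined by applying the same rule to the 7 libraries of replicate number 1 and measuring the result in the 7 of number 2, and the reverse. The 150 genes chosen on replicate 1 had a median SD of 0.091 in these libraries and of 0.17 in the libraries of replicate 2. In these other libraries the median over all eligible genes was 0.41, and 149 of the 150 genes were below it. The 150 genes chosen on replicate 2 had a median SD of 0.11 there and of 0.14 in the libraries of replicate 1, against 0.33 over all eligible genes, and all 150 were below that. Of the chosen genes, 97 and 94 were among the most stable 10% in the other libraries, and 25 genes were in both lists of 150. Thus most of the chosen genes stayed among the stable part of the transcriptome, while the exact order did not carry over. When paclobutrazol at 6 mg/L was left out of both sets, which was added after seeing the data, the medians in the libraries not used were 0.15 and 0.12, against 0.39 and 0.31.

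The same was done with each condition left out, so that the list was chosen on 12 libraries and the mean of the other 2 was then compared with that of the 12. The median absolute shift of the chosen genes was 0.16 with paclobutrazol at 6 mg/L and 0.13 at 8 mg/L, 0.12 with B9 at 6 mg/L and 0.09 at 8 mg/L, 0.10 with mannitol at 2.5 g/L and 0.20 at 15 g/L, and 0.12 in CK. The medians of the eligible genes lay between 0.24 and 0.38. No gene of these 7 lists shifted by over 1 in the condition left out, while 2.46% to 10.4% of the eligible genes did. Over 0.5, there were 3 genes with paclobutrazol at 6 mg/L, 1 with paclobutrazol at 8 mg/L, 2 in each mannitol treatment and 0 elsewhere, against 17.7% to 38.2% of the eligible genes over the 7 conditions. On the CPM scale the largest median was that of mannitol at 15 g/L. Its list was lower by a median of 0.20, with 46 of 150 genes over 0.25 (53.3% of the eligible genes), and the eligible genes were lower by a median of 0.08. On the TMM scale the order was another one, with 0.12 in both paclobutrazol treatments, 0.09 in both B9 treatments, 0.09 with mannitol at 2.5 g/L, 0.098 at 15 g/L, and 0.098 in CK. Each of these lists shared 89 to 128 genes with the list from all libraries.

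**Figure D5:**
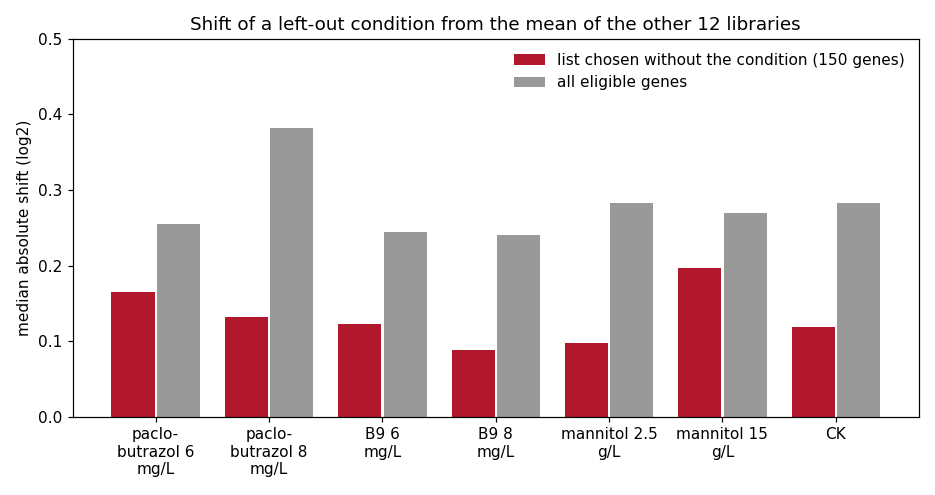
Median absolute difference (y, log2) between the mean of the 2 libraries of a condition (x) and the mean of the other 12, for the 150 genes chosen on those 12 libraries and for all eligible genes. The bars of the chosen genes lie between 0.09 with B9 at 8 mg/L and 0.20 with mannitol at 15 g/L, and those of the eligible genes between 0.24 and 0.38.

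A panel of 3 genes, as is usual in qPCR, was followed in the same way. The mean of the 3 genes of smallest SD among 12 libraries shifted in the condition left out by -0.15 with paclobutrazol at 6 mg/L and 0.12 at 8 mg/L, 0.07 with B9 at 6 mg/L and 0.03 at 8 mg/L, 0.01 with mannitol at 2.5 g/L and -0.14 at 15 g/L, and 0.17 in CK. LOC116200855 was among the 3 in all cases but mannitol at 15 g/L. The largest single shift was 0.31, with paclobutrazol at 8 mg/L. Over all 14 libraries, the mean of LOC116200855, LOC116203500 and LOC116210971 had an SD of 0.047. The mean of 10 genes had 0.043 and that of all 150 genes 0.042. On the TMM scale these SDs were 0.063, 0.066 and 0.051. The same libraries had ranked the genes, so these SDs are a description.

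Ratios between genes do not depend on the scaling of the libraries. For the 66 pairs among the 12 genes of smallest SD, the SD of the log2 ratio of counts was between 0.069 and 0.16, with a median of 0.11. For all 11175 pairs of the list the median was 0.16 and the largest 0.25. The steadiest pair was LOC116188235 with LOC116208077, at 0.055, a pair that was picked after its values were seen.

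Which genes made the list depended more on the scaling than on any single library. With each library left out in turn, the rule gave back between 113 and 140 of the 150 genes, and 92 were given back in all 14 cases. The lowest number came without replicate 1 of paclobutrazol at 6 mg/L. With TMM-scaled totals 85 of the genes were chosen again, with the size factors of DESeq2 89, and with the spread taken from ratios to all other eligible genes 91. These 3 alternatives together kept 73 of the 150. All 12 genes of smallest SD were among those chosen again under each of these settings. The first gene changed, since LOC116192095 led in all 3, with an SD of 0.069 under TMM. On the CPM scale it was the 14th, with an SD of 0.0999 and values of 28.7 to 36.1 CPM, lowest in replicate 2 of mannitol at 15 g/L and highest in replicate 1 of B9 at 8 mg/L. It is named after its values were seen.

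Without both libraries of paclobutrazol at 6 mg/L, 90 of the 150 genes were chosen again. LOC116212249, also named after its values were seen, then came first with an SD of 0.047, whereas over all 14 libraries it was the 197th with 0.14. It had 35.4 and 26.2 CPM with paclobutrazol at 6 mg/L, between 35.5 and 39.2 CPM in the other 10 treated libraries, and 37.2 and 39.5 CPM in CK. Its place outside the list thus rested on 1 library. In 24 of 25 settings, all but the one without a lower limit on CPM, 21 genes were always chosen. They had 51.4 to 173 CPM and included LOC116200855, LOC116203500, LOC116210971, LOC116200752, LOC116211238, LOC116208796, LOC116186955 and LOC116208734 of the 12 named above. The other 4 of the 12 have under 50 CPM and were dropped by the setting that asks for 50. That setting bars every gene under 50 mean CPM, and in the other 23 settings 42 genes were always chosen.

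Gene length had no part in the rule. Length here is the span of the gene on the genome, introns included. Its median was 3884 bp in the list and 3512 bp over the eligible genes. Only 14 of the 150 genes (9.33%) were shorter than 2402 bp, the lower quartile of the eligible genes, and 56 (37.3%) lay between the median and the upper quartile of 5108 bp. Over the eligible genes, the median SD was 0.47 in the shortest of the 4 length classes set by these quartiles, 0.34 and 0.32 in the middle ones and 0.41 in the longest. No test was made of this difference, and its source was not tested. The number of annotated transcripts was 1 for 62.0% of the list and for 64.8% of the eligible genes.

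In the annotation, LOC116203710 and LOC116203712 were the only members that stood next to each other, and their spans overlap. In all, 7 of the 150 genes overlap another annotated gene. The strand setting of the counting is not given in the sources used here, so reads of such genes cannot be assigned with certainty. None of the 7 was named by the rule for naming genes. The protein-coding neighbours of the stable genes that were eligible themselves had a median SD of 0.33 (127 genes), against 0.37 for the neighbours of all eligible genes.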

How the data were processed

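The deposited table holds raw counts per gene and library. The authors made it with featureCounts from reads placed by hisat2, after removing poor reads and those that matched several places, so genes with near-identical copies may be counted too low. Groups and replicate numbers came from the sample labels. CPM was computed on total counts. The rule for the 150 genes is given above. Genes were named by rule: the 12 of smallest SD, the most stable per CPM band, the 5 of highest CPM, the farthest from CK per treatment in each direction, and 3 on each side of the limit. The members and lists were chosen with earlier results of these data known. Fits used R 4.3.3 with edgeR 4.0.16 (filterByExpr with minimum count 10, TMM, all 14 libraries in 1 fit of condition means, Benjamini-Hochberg adjustment) and DESeq2 1.42.0 as an alternative. The biological coefficient of variation common to all tested genes was 32.2%. By single gene, edgeR draws its values towards those of other genes. Their median was 14.1% in the list and 19.6% over the eligible genes. The lowest value in the list was 13.0%, above the SD limit of 9.56%, so these values are not the observed spread of the stable genes. Fits and rule were also run on simulated counts. Those for the rule held no treatment effects and no differences in composition between libraries, so they do not check the rule under such differences. Of the gene symbols, 27509 matched the RefSeq table of ASM765513v2. Promoters, proteins, known reference gene families and leaf markers were planned but not analysed here. P-values rest on the spread between the 2 plants of a condition, pooled over all conditions of the fit and shared in part across genes. Settings tried were other scalings, pseudocounts of 0.1 and 5, lower limits of 5, 50 and 0 CPM, other measures of spread, left-out libraries, no low-count filter and a replicate block.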

Additional observations from a re-analysis of the deposited data

How the results depend on the processing

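The number of the 150 genes chosen again was 85 with TMM-scaled totals, 89 with DESeq2 size factors, 91 with pairwise ratios, 80 with a limit of 50 mean CPM, 90 without the libraries of paclobutrazol at 6 mg/L, and 0 without a lower limit, where genes with almost no reads come first. Leaving out 1 library gave 113 to 140. For the median shift of the list from CK, TMM and DESeq2 size factors gave 0.102 and 0.099 with paclobutrazol at 6 mg/L, 0.128 and 0.113 with paclobutrazol at 8 mg/L, 0.093 and 0.078 with B9 at 6 mg/L, 0.093 and 0.066 with B9 at 8 mg/L, 0.069 and 0.079 with mannitol at 2.5 g/L, and 0.093 and 0.070 with mannitol at 15 g/L. Leaving out 1 library gave -0.0853 to -0.063 with paclobutrazol at 6 mg/L, -0.055 to -0.000254 with paclobutrazol at 8 mg/L, -0.0037 to 0.048 with B9 at 6 mg/L, -0.032 to -0.00837 with B9 at 8 mg/L, -0.037 to -0.0036 with mannitol at 2.5 g/L, and -0.14 to -0.078 with mannitol at 15 g/L. In the list chosen without mannitol at 15 g/L, the median absolute shift there was 0.098 with TMM and 0.103 with size factors. The cause of these changes was not tested. With a replicate block the number of members called was 0 in all 6 comparisons, as in all 119 recomputed counts by both thresholds. Whether the replicate numbers pair the libraries was not settled. The correlation of replicate differences between conditions ran from -0.29 to 0.39, and 6 of 21 pairs of conditions were over 0.1. It was highest between the 2 doses of each agent, at 0.39 for B9, 0.35 for paclobutrazol and 0.25 for mannitol. Of 309 recomputed values, 286 moved by less than the spread between replicates or, for counts, by less than 1.5 times. The 309 include the 119 counts of called members, all 0 under a rule that had used these contrasts. They also include median shifts recomputed without a library that does not enter them. Such values had little or no room to move, so the 286 are no measure of robustness. With 2 plants per condition and a spread from counting of 0.042 at the median, differences in order between neighbouring genes of the list were not resolved at this depth.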
